A study of Mus musculus with 39 samples.

Results

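The 3 libraries of granulocytic (G) cells sorted from newborn mouse bone marrow were set against the 3 libraries of all cells of such marrow. They are 6 of the 39 libraries of the series, told apart from the rest by their titles, and every gene with at least 1 TPM (a gene's share of its library's transcripts, corrected for length and scaled to 1000000) in at least 3 of the 6 was compared, which left 14200 of the 28485 genes above 0 in any of them. The G cells are labelled as granulocytic myeloid-derived suppressor cells. Both groups come from C57BL/6 mice labelled newborn and P7 and described as wild type, with no treatment or further allele named. All cells are the single cells of the marrow before any gate named in the labels, so they can be taken to include cells of the kind that was sorted, and the comparison is of a part with its whole. Monocytic (M) cells sorted from the same kind of marrow, also 3 libraries, are given beside both. The surface markers of the gates, the number of animals behind a library and whether all cells passed through a sorter are unknown from the labels. A p-value therefore measures only the spread between these libraries, which may be technical, and the effects of the gate and of handling cannot be told apart.

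Neutrophils mature in the marrow in a fixed order. Promyelocytes fill primary (azurophil) granules with myeloperoxidase and serine proteases, myelocytes then make the proteins of secondary granules such as lactoferrin, and the later, non-dividing cells make gelatinase, chemokine receptors and secretory proteins. In newborn rodents the marrow is also a site of red cell and B lymphocyte production, and red cell precursors are its main source of globin messenger RNA. Cells called granulocytic myeloid-derived suppressor cells share most surface markers with maturing neutrophils.

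The labels were first checked against genes that mark the cells. Cxcr2 had 386, 328 and 334 TPM in the G libraries, against 42.0, 42.8 and 39.9 TPM in all cells. Itgam, the alpha chain of the adhesion receptor CD11b, had 752, 709 and 798 TPM in the G libraries, against 142, 132 and 119 TPM in all cells. Hbb-bs had 633, 465 and 745 TPM in the G libraries, against 30451, 16607 and 32401 TPM in all cells. The 3 genes mark, in turn, neutrophils, myeloid cells and red cell precursors, and none of them overlapped between the groups. Such a lack of overlap was common. Each G library lay above each library of all cells in 34% of all genes tested and below in 41.7%. Ly6g, the antigen by which mouse neutrophils are usually recognised, was looked at outside the rule for naming genes after its values were seen, and had 295, 282 and 262 TPM in the G sort, against 44.4, 47.7 and 32.1 TPM in all cells. The monocyte chemokine receptor Ccr2 had 4.57, 6.20 and 7.23 TPM in the G sort, 39.0, 45.9 and 38.3 TPM in all cells and 325, 308 and 336 TPM in the M sort.

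Libraries of a group resembled each other closely. Pearson correlations of log2(TPM + 1) over the genes tested were 0.985 to 0.988 within the G sort, 0.986 to 0.988 within all cells and 0.880 to 0.904 between them. TPM keeps no read counts, so the depth is unknown and no counting error is given. Transcripts encoded by mitochondria took 2.49% to 2.70% of the G libraries and 2.82% to 3.07% of all cells. Library 2 of all cells stood somewhat apart, with a globin share of 5.30%, against 8.72% and 9.82% in the other two, and with the highest eosinophil genes. Library 1 of the G sort had the highest platelet and stromal genes of its group. In bulk RNA, fewer cells of a type and less RNA per cell cannot be told apart, and this holds for every difference below.

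Of the 14200 genes, 3545 (25%) were called between the G sort and all cells, when the adjusted p was under 0.05 and the change was 2-fold or more (1 on the log2 scale), by limma's moderated test on log2(TPM + 1) with Benjamini-Hochberg adjustment over all genes. The calls were almost evenly split, with 1784 genes (12.6%) higher in G cells and 1761 (12.4%) lower. In 4834 genes (34%) each G library lay above each library of all cells, and in 5928 (41.7%) each lay below. The median log2 fold change of all genes was -0.10. It was -0.005 once libraries were rescaled by their median ratio, and -0.20 once globin genes were taken out and the rest rescaled, so a change of about 0.1 on this scale is within what the scaling decides. Against the M sort, in a fit of the 9 marrow libraries, 1344 genes (9.46%) were higher in G cells and 568 (4%) lower. The 2 comparisons share the G libraries.

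**Figure D1:**
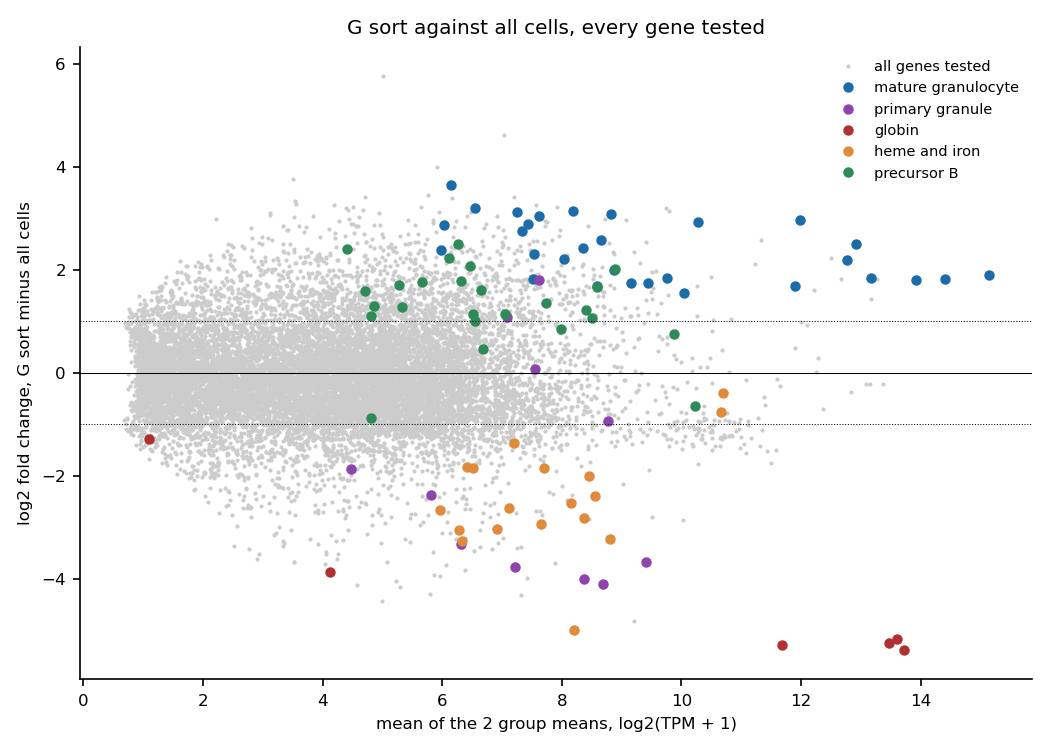
Each point is 1 of the 14200 genes, with the log2 fold change of the G sort minus all cells (vertical axis, log2(TPM + 1) scale) against its level (horizontal axis, log2(TPM + 1) of the average of both group means). Dotted lines mark a log2 fold change of 1 in either direction. The 30 mature granulocyte genes lie above the upper line, and globin and heme genes make up much of the lowest points at high levels.

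All listed genes of mature neutrophils were higher in the G sort than in all cells. The list, like the others here, was chosen with earlier results of these data known, and it holds the label marker Cxcr2. Its count is therefore a description and no test of the label. All 30 genes of the mature granulocyte list were called higher, with log2 fold changes of 1.54 to 3.64 and a median of 2.34, where -0.10 was the median of all genes. In each of the 30 the libraries of the groups did not overlap, with G above, as in 34% of all genes tested. Together they took 18.04% ± 0.84 of the TPM of the G libraries, against 4.65% ± 0.50 in all cells and 15.1% ± 1.4 in the M sort (SD, n = 3 each). Against the M sort, 13 of the 30 were higher in G cells and none lower. Over all genes tested, 12.6% were called higher than in all cells and 9.46% higher than in the M sort.

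Cxcr2, the receptor through which CXC chemokines draw neutrophils out of the marrow, was 8.41-fold higher in the G sort by group means (log2 fold change 3.04 ± 0.07 SE, adjusted p = 1.37e-07). Csf3r, the receptor of the granulocyte growth factor G-CSF, had 819.8, 781 and 836 TPM in the G sort, against 96.7, 101 and 86.5 TPM in all cells (log2 fold change 3.09 ± 0.07 SE, adjusted p = 1.37e-07). Both were also higher than in the M sort, by 1.49 ± 0.13 (SE, adjusted p = 9.22e-06) and 1.35 ± 0.09 (SE, adjusted p = 1.37e-06). Retnlg had 7489, 6598 and 7339 TPM in the G libraries, against 893, 911 and 953 TPM in all cells. This resistin-like protein of neutrophils was 7.77-fold higher in the G sort (log2 fold change 2.96 ± 0.08 SE, adjusted p = 2.03e-07), and its 3 M libraries, at 2152, 1274 and 1629 TPM, lay between. The gelatinase Mmp9 had 2236, 2116 and 2235 TPM in the G sort, against 290.2, 274 and 302 TPM in all cells (log2 fold change 2.92 ± 0.06 SE, adjusted p = 1.37e-07). Clec4d, a lectin receptor, had 303, 254 and 261 TPM in the G sort, against 30.9, 29.4 and 30.7 TPM in all cells (log2 fold change 3.13 ± 0.08 SE, adjusted p = 1.37e-07). Fpr1 and Fpr2, receptors for formylated bacterial peptides, had log2 fold changes of 2.89 and 2.42. Il1b, the inflammatory cytokine, had the largest change of the list, with 119, 118 and 155 TPM in the G sort and 8.91, 11.1 and 8.57 TPM in all cells (log2 fold change 3.64 ± 0.13 SE, adjusted p = 3.59e-07).

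The most abundant neutrophil transcripts differed less. S100a9 and S100a8, the subunits of calprotectin, were the top genes of the G sort. S100a9 had 59079, 53441 and 57551 TPM in the G sort, against 15330, 17298 and 13379 TPM in all cells (log2 fold change 1.89 ± 0.17 SE, adjusted p = 2.16e-05). S100a8 had 36704, 32197 and 32581 TPM in the G sort, against 9706, 10863 and 8258 TPM in all cells (log2 fold change 1.82 ± 0.15 SE, adjusted p = 1.78e-05). Both were close to the M sort, where S100a8 had 37977, 31583 and 31850 TPM, with a log2 difference of 0.004 ± 0.15 (SE, adjusted p = 0.985). The stefin A genes, inhibitors of cysteine proteases that lie together on mouse chromosome 16, were next: Stfa1 had 24310, 22605 and 25259 TPM in the G sort, against 6882, 7729 and 6200 TPM in all cells (log2 fold change 1.80 ± 0.13 SE, adjusted p = 8.77e-06), which with the spread of all 39 libraries was not called (adjusted p = 0.0862). Stfa2, Stfa2l1 and BC100530 had log2 fold changes of 2.49, 2.178 and 1.84. These copies are close in sequence, so how reads were divided among them is uncertain.

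**Figure D2:**
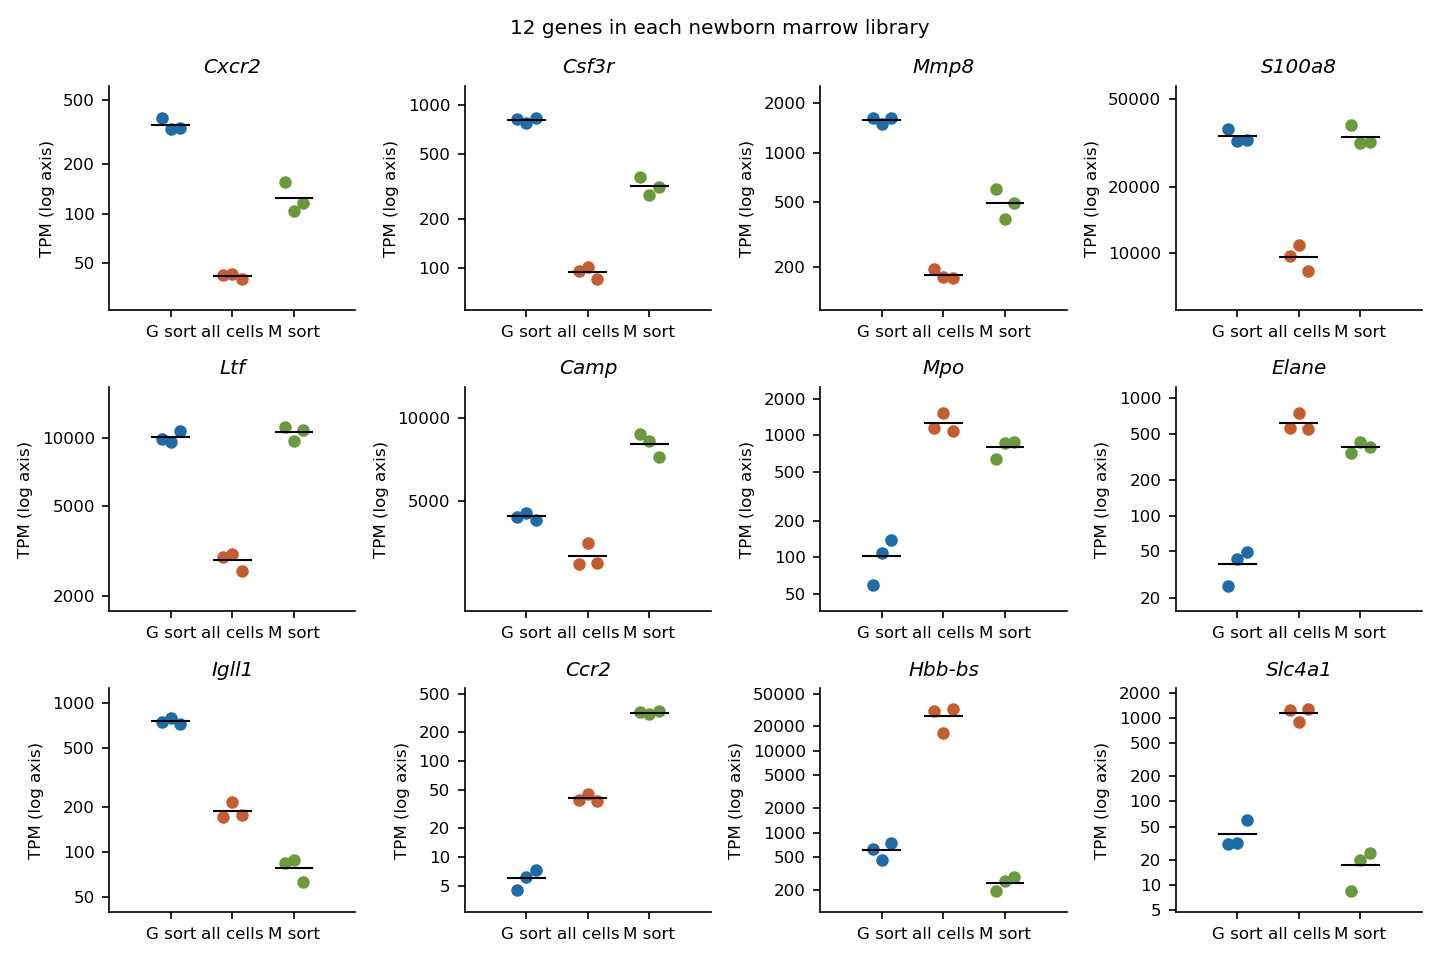
TPM (log axis) of 12 genes in each of the 9 marrow libraries; points are libraries and bars are means of the G sort, all cells and the M sort. Cxcr2, Csf3r and Mmp8 are highest in the G sort, Mpo and Elane are lowest in it, Igll1 is highest in it, Ccr2 is highest in the M sort, and Hbb-bs and Slc4a1 are highest in all cells.

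Granule genes divided by the stage at which they are known to be made. Of the 11 primary granule genes tested, 7 were called lower in G cells and 2 higher, with a median log2 fold change of -2.38. The shares of all genes were 12.4% lower and 12.6% higher. The list took 0.122% ± 0.0090 of the TPM in the G sort, 0.413% ± 0.065 in all cells and 0.332% ± 0.027 in the M sort (SD, n = 3 each). Mpo, the myeloperoxidase, had 59.1, 108 and 139 TPM in the G sort, against 1160, 1518 and 1097 TPM in all cells (log2 fold change -3.68 ± 0.28 SE, adjusted p = 1.13e-05). The neutrophil elastase Elane had 25.3, 42.6 and 48.5 TPM in the G sort, against 560.2, 752 and 547 TPM in all cells (log2 fold change -4.00 ± 0.23 SE, adjusted p = 2.71e-06). Prtn3, proteinase 3, had 27.8, 50.9 and 58.3 TPM in the G sort, against 691, 917 and 716 TPM in all cells (log2 fold change -4.11 ± 0.25 SE, adjusted p = 3.61e-06). Ctsg, cathepsin G, had 12.8, 21.9 and 24.6 TPM in the G sort, against 248, 332 and 247 TPM in all cells (log2 fold change -3.77 ± 0.23 SE, adjusted p = 3.24e-06). In each of these 4 genes library 1 of the G sort was the lowest, and no G library overlapped with all cells. Each G library also lay below in 41.7% of all genes tested. The M sort, with 341, 427 and 386 TPM of Elane, was also above the G sort (log2 fold change of G minus M -3.32, adjusted p = 1.11e-06). The 2 genes called higher, Igsf6 (log2 fold change 1.79) and Rab44 (1.07), are a membrane protein of the immunoglobulin superfamily and a Rab-family protein and are not granule proteases. Rab44 missed the fold minimum without library 3 of all cells (0.96) and with globin genes taken out (0.96).

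Secondary and tertiary granule genes went the other way, with 17 of 22 called higher, 1 lower and a median of 1.54. The shares of all genes were 12.6% higher and 12.4% lower. They took 4.56% ± 0.17 of the TPM in the G sort, 1.70% ± 0.17 in all cells and 6.50% ± 0.33 in the M sort (SD, n = 3 each). Ltf, the iron-binding lactoferrin, had 9907, 9643 and 10746 TPM in the G sort, against 2986, 3063 and 2571 TPM in all cells (log2 fold change 1.82 ± 0.11 SE, adjusted p = 2.87e-06). Mmp8, the neutrophil collagenase, had 1631, 1489 and 1621 TPM in the G sort, against 194, 174 and 169.9 TPM in all cells (log2 fold change 3.13 ± 0.07 SE, adjusted p = 1.37e-07). Ngp, the neutrophilic granule protein, had 12282, 13497 and 14250 TPM in the G sort, against 5061, 5462 and 4381 TPM in all cells (log2 fold change 1.43 ± 0.12 SE, adjusted p = 2.19e-05); with the spread taken from all 39 libraries its adjusted p was 0.145. Olfm4, olfactomedin 4, a protein of a subset of neutrophils, had a log2 fold change of 2.54, and Lyz2, lysozyme, of 1.61. Camp, the precursor of the antimicrobial cathelicidin, missed the fold minimum, with 4412, 4564 and 4285 TPM in the G sort, against 2975, 3536 and 3008 TPM in all cells (log2 fold change 0.48, adjusted p = 0.00244). Fcnb, ficolin B, was the only one called lower, with 87.3, 96.5 and 108 TPM in the G sort, 251, 299.7 and 199 TPM in all cells and 585, 589.5 and 591 TPM in the M sort (log2 fold change -1.33 ± 0.15 SE, adjusted p = 7.64e-05).

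**Figure D3:**
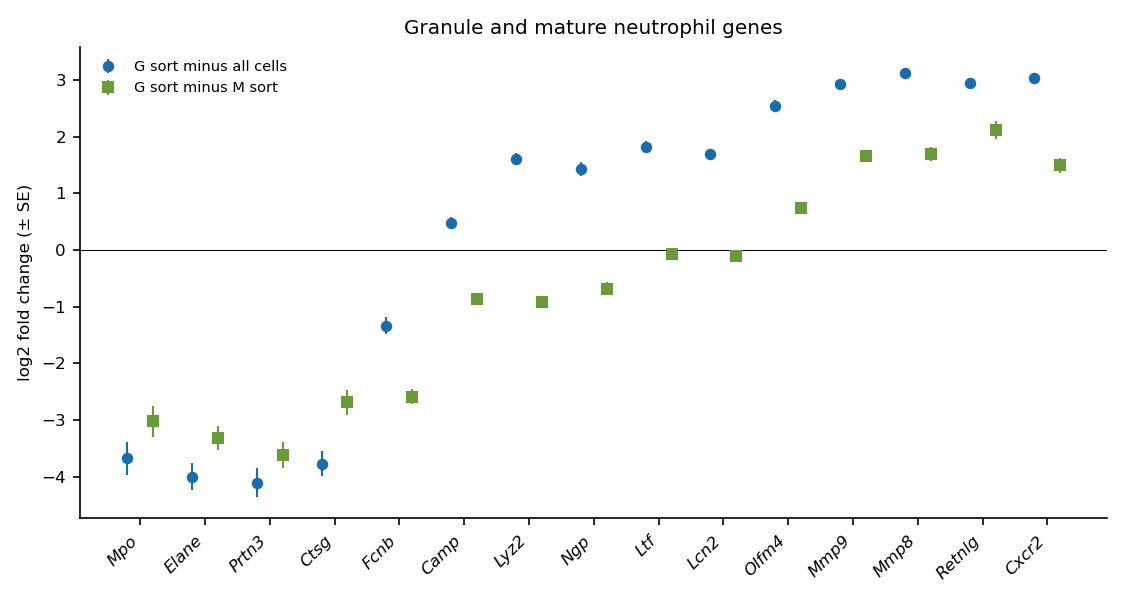
Log2 fold changes on the log2(TPM + 1) scale (± SE) of 15 granule and neutrophil genes, for the G sort minus all cells (circles) and the G sort minus the M sort (squares), in an order set after the values were seen. The primary granule genes Mpo, Elane, Prtn3 and Ctsg are below 0 in both comparisons and Mmp9, Mmp8, Retnlg and Cxcr2 above 0 in both, while Camp, Ngp and Lyz2 are above 0 against all cells and below 0 against the M sort. The comparisons share the G libraries.

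The promoters of 2 primary granule genes called lower (Elane and Prtn3), of 2 secondary granule genes called higher (Ltf and Ngp) and of S100a8 from the mature granulocyte list are shown as examples of genes that moved in opposite directions. They are RefSeq windows of GRCm38.p6 from 250 bases before to 50 bases after the transcription start, written on the strand of the gene. Capitals mark 2 letter patterns searched on both strands, TTNNGCAA for the half-site pair of C/EBP factors and GAGGAAG for PU.1.
Elane (chr10:79886062-79886361, plus strand): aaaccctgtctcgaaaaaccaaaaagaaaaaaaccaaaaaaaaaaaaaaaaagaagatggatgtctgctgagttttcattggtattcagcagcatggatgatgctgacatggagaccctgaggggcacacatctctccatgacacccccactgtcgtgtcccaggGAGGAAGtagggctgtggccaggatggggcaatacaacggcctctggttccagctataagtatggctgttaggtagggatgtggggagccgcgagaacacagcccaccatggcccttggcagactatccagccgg
Prtn3 (chr10:79879417-79879716, plus strand): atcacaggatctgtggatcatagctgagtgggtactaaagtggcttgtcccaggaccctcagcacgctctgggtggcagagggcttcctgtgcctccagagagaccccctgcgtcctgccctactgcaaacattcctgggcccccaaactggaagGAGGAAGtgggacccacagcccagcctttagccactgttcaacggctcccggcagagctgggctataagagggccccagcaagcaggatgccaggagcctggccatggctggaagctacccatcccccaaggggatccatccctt
Ltf (chr9:111019042-111019341, plus strand): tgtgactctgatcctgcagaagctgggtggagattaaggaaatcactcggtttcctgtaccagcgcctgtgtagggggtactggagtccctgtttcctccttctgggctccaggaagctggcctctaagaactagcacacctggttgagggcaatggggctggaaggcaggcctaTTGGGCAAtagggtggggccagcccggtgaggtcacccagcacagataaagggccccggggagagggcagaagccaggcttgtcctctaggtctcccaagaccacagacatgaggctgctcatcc
Ngp (chr9:110419558-110419857, plus strand): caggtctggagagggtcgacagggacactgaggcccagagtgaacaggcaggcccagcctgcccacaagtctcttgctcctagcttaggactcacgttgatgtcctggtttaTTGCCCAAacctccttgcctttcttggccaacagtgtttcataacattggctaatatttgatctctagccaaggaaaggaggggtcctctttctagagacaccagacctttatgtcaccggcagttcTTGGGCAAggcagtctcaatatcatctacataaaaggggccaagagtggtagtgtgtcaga
S100a8 (chr3:90668821-90669120, plus strand): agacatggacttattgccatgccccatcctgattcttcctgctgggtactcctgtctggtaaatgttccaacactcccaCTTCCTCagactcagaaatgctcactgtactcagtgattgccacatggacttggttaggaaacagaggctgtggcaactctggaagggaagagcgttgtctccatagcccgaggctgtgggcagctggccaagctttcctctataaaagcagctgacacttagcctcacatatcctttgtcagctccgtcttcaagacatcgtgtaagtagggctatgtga
GAGGAAG stands 85 bases before the start in Elane, 95 bases before it in Prtn3 and 171 bases before it in S100a8, there on the other strand. TTNNGCAA stands 75 bases before the start in Ltf and at 138 bases, there on the other strand, and 11 bases before it in Ngp. GAGGAAG was found in 4 of 6 promoters of the primary granule genes called lower, in 5 of 15 of the secondary and tertiary granule genes called higher and in 7 of 24 of the mature granulocyte genes called higher, against 14% of the 9835 tested genes and 13.5% of all 27025 genes with a window. TTNNGCAA was found in 1 of 6, 5 of 15 and 6 of 24 in the same order, against 8.39% and 10.8%. A match is a run of letters, not a measured binding site.

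Regulators of granulocyte formation were often higher in the G sort than in all cells. Of 23 tested, 12 were called higher and 1 lower, with a median log2 fold change of 1.09. Of all genes tested, 12.6% were called higher and 12.4% lower. Cebpe, a transcription factor needed for secondary granules, had 213, 208 and 211 TPM in the G sort, against 99.2, 109 and 89.3 TPM in all cells (log2 fold change 1.09 ± 0.08 SE, adjusted p = 6.59e-06); with globin genes taken out it missed the fold minimum (0.97). Spi1, the gene of PU.1, had a log2 fold change of 1.59, and the receptor chains Csf2ra and Csf2rb of 1.77 and 1.50. Socs3, an inhibitor of cytokine signalling, had 22.7, 17.1 and 24.0 TPM in the G sort, against 4.43, 3.82 and 6.41 TPM in all cells (log2 fold change 1.93 ± 0.18 SE, adjusted p = 3.49e-05). Klf4, a transcription factor of monocyte formation, was the one called lower, with 2.65, 4.03 and 3.91 TPM in the G sort, 10.3, 11.1 and 9.03 TPM in all cells and 87.4, 94.7 and 101 TPM in the M sort (log2 fold change -1.31 ± 0.15 SE, adjusted p = 9.32e-05). Cebpa, which acts earlier in the lineage, had 8.33, 5.79 and 6.62 TPM in the G sort and 12.9, 14.1 and 13.3 TPM in all cells and was not called (log2 fold change -0.88, adjusted p = 3.33e-04). Without library 1 of the G sort it was called lower (-1.01), which made 2 genes of the list. Against the M sort, 3 of the 23 were higher in G cells and 8 lower, with a median of -0.45, beside 9.46% and 4% of all genes. The log2 fold change of G minus M was -0.36 in Cebpe, -0.46 in Csf2rb and 1.45 in Socs3.

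Genes by which neutrophils reach, sense and kill microbes were often higher in the G sort than in all cells, though 4 chemotaxis genes were lower. The counts stand beside 12.6% of all genes called higher against all cells and 12.4% called lower. Of 6 subunits of the phagocyte oxidase, 5 were called higher, with a median of 1.54. Ncf1, its p47 organiser, had 1027, 979 and 1077 TPM in the G sort, against 249, 251 and 208 TPM in all cells (log2 fold change 2.12 ± 0.09 SE, adjusted p = 5.51e-07), and Cyba, the smaller membrane subunit, was the one not called (log2 fold change 0.78, adjusted p = 9.91e-05). Adhesion genes had 10 of 15 called higher and none lower, with a median of 1.23. Itgam was 5.74-fold higher by group means (log2 fold change 2.51 ± 0.08 SE, adjusted p = 2.52e-07), and its partner chain Itgb2 had a log2 fold change of 2.06. Pattern recognition genes had 18 of 24 called higher and none lower, with a median of 1.51. Among them, Nlrp3, the sensor of an inflammasome, had 42.7, 41.3 and 39.6 TPM in the G sort, against 4.98, 4.38 and 5.16 TPM in all cells (log2 fold change 2.85 ± 0.08 SE, adjusted p = 2.08e-07), and Pirb, an inhibitory receptor for class I molecules, had a log2 fold change of 2.51. Chemotaxis genes had 10 of 19 called higher and 4 lower, with a median of 1.18. C5ar1, the receptor of the complement fragment C5a, and the chemokine Ccl6 were among the higher ones (log2 fold changes 2.65 and 2.42). Ccr2 and Ccl9, both of monocytes, were among the lower ones (-2.602 and -2.09). Cxcl2, a chemokine that calls neutrophils, had 9.37, 9.97 and 41.7 TPM in the G sort, where library 3 stood out, against 0.16, 0.03 and 0.63 TPM in all cells (log2 fold change 3.76 ± 0.51 SE, adjusted p = 2.64e-04). Against the M sort these lists differed less. No oxidase gene was called (median -0.02), and 2 of 15 adhesion genes were higher and none lower (0.19). Pattern recognition had 3 of 24 higher and 4 lower (-0.12), and chemotaxis 3 of 19 higher and 6 lower (0.25). Over all genes tested, 9.46% were higher than in the M sort and 4% lower, so these counts of higher genes are near that share.

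Genes tied to suppression of T cells were not uniform. Of 18 tested genes of that list, 11 were called higher in G cells and 1 lower, with a median log2 fold change of 1.39. Among all genes tested, 12.6% were called higher and 12.4% lower. S100a8 and S100a9 are also in the mature granulocyte list. Arg2, the mitochondrial arginase, had 58.2, 52.2 and 52.5 TPM in the G sort, against 6.12, 4.48 and 5.74 TPM in all cells (log2 fold change 3.11 ± 0.11 SE, adjusted p = 3.47e-07), and the M sort had 15.1, 9.47 and 11.3 TPM. Cd33, a sialic acid receptor used to mark human myeloid suppressor cells, had 750.0, 693 and 799 TPM in the G sort, against 99.7, 91.1 and 89.7 TPM in all cells (log2 fold change 2.98 ± 0.07 SE, adjusted p = 1.37e-07). Cd84, a receptor of the SLAM family, had 225, 206 and 217 TPM in the G sort, against 41.0, 40.5 and 35.7 TPM in all cells (log2 fold change 2.44 ± 0.07 SE, adjusted p = 2.08e-07). Vsir, which encodes the checkpoint protein VISTA, had a log2 fold change of 2.01, with similar levels in the G and M sorts (584, 577 and 592 TPM and 562, 524 and 550.5 TPM). Lgals1, galectin 1, was the one called lower (log2 fold change -1.13 ± 0.14 SE, adjusted p = 1.69e-04). Against the M sort, 5 of the 18 were higher in G cells and 2 lower, with a median of 0.05, beside 9.46% and 4% of all genes. Arg1, Nos2, Ido1 and Il10, often used to define suppressive activity, were low in the G sort and in all cells. Arg1, arginase 1, which like the next 3 is named outside the rule after its values were seen, had 0.04, 0 and 0.13 TPM in the G sort, against 0.50, 0.33 and 0.39 TPM in all cells, and Nos2, Ido1 and Il10 stayed at or under 0.39 TPM in the 9 marrow libraries and were not tested.

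**Figure D4:**
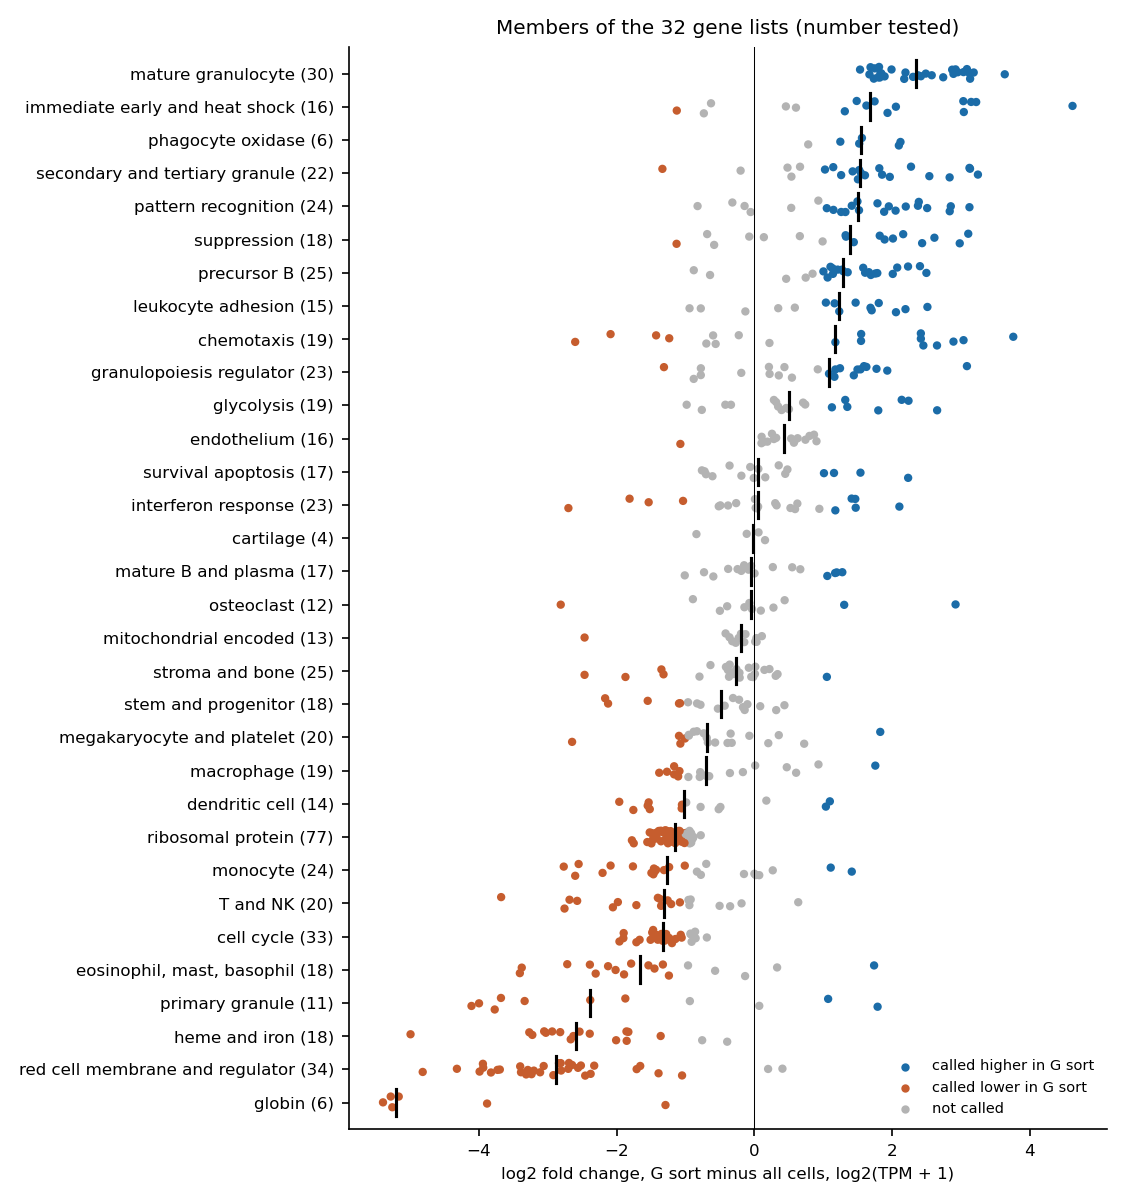
Log2 fold changes of the G sort minus all cells for the tested members of 32 gene lists, ordered by their median (black bar); each point is a gene, coloured by whether it was called, and the number tested stands in brackets. Mature granulocyte genes have the highest median at 2.34 and globin genes the lowest at -5.21.

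Among the largest changes outside the granulocyte lists were immediate early genes, beside genes of other functions. Fos, an early response transcription factor, had 203, 233 and 316 TPM in the G sort, against 9.69, 10.1 and 7.55 TPM in all cells (log2 fold change 4.62 ± 0.17 SE, adjusted p = 3.67e-07), and 280.0, 287 and 439 TPM in the M sort. Of 16 immediate early and heat shock genes, 11 were called higher and 1 lower, with a median of 1.69, beside 12.6% and 12.4% of all genes. Junb, a partner of Fos, had a log2 fold change of 3.04, and Zfp36, a protein that destabilises cytokine messenger RNA, of 3.22. Hsp90aa1, a heat shock chaperone, was the one called lower (-1.13). Against the M sort, 3 of the 16 were higher in G cells and 2 lower, with a median of 0.20, beside 9.46% and 4% of all genes. Fos was not called in that comparison (log2 fold change of G minus M -0.41, adjusted p = 0.107). Immediate early genes are known to be induced quickly by many stimuli. Whether all cells passed through a sorter is unknown, and a part of handling in these genes was not tested. Trpm2, a calcium channel of myeloid cells opened by oxidative stress, had 269, 246 and 286 TPM in the G sort, against 24.8, 23.6 and 24.0 TPM in all cells (log2 fold change 3.41 ± 0.07 SE, adjusted p = 1.37e-07). Cd101, a surface protein carried by the most mature marrow neutrophils in mice, had 50.6, 44.8 and 44.5 TPM in the G sort, against 3.86, 3.51 and 3.14 TPM in all cells (log2 fold change 3.40 ± 0.09 SE, adjusted p = 1.90e-07). The others of the 12 largest beside Cxcl2 and Il1b above were Mirt2, Trim30b, Adam8, Trib1 and Osm, with log2 fold changes of 3.21 to 3.45.

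The gene at the top was Mir147, listed at 0 in each library of all cells and at 65.3, 23.5 and 97.9 TPM in the G sort. No fold is given against a listed 0. The gene is annotated as a hairpin of 79 bases on chromosome 2 (122640803 to 122640881, plus strand, GRCm38) inside AA467197, a protein-coding gene at 122636986 to 122641191 on the same strand. Reads were 75 bases long, and the kit selects polyadenylated RNA, so this value is no measure of the mature microRNA. AA467197 itself, named here after its values were seen, had 77.7, 73.8 and 82.2 TPM in the G sort, against 22.2, 22.8 and 21.3 TPM in all cells (log2 fold change 1.77 ± 0.06 SE, adjusted p = 3.65e-07). The mature sequence of the 5p arm, given by RefSeq, is shown to identify the hairpin. Capitals mark the seed of that arm (bases 2 to 8), and the other arm is not shown.
mmu-miR-147-5p: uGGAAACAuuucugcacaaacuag

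Genes of red cells were the lowest in the G sort. Their summed globin share was 0.202% ± 0.047 of TPM in the G sort, 7.95% ± 2.4 in all cells and 0.0855% ± 0.021 in the M sort (SD, n = 3 each). All 6 globin genes tested were called lower, with a median log2 fold change of -5.21, beside 12.4% of all genes called lower. Hbb-bs, an adult beta globin, was 43.1-fold higher in all cells than in the G sort by group means (log2 fold change -5.39 ± 0.28 SE, adjusted p = 1.44e-06). Hba-a1, an alpha globin, had 511, 487 and 733 TPM in the G sort, against 22940, 16390 and 27347 TPM in all cells (log2 fold change -5.26 ± 0.22 SE, adjusted p = 5.93e-07). Hba-a1 and Hba-a2, like Hbb-bs and Hbb-bt, are near-identical pairs whose reads could be divided between copies. The G sort still had more globin than the M sort (Hbb-bs 192, 256 and 287 TPM in the M sort, log2 fold change of G minus M 1.32, adjusted p = 0.00204).

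Heme and membrane genes were lower as well. Of 18 heme and iron genes 16 were called lower, with a median of -2.58, and of 34 red cell membrane and regulator genes 32 were called lower, with a median of -2.88. None of either list was called higher. The shares of all genes were 12.4% lower and 12.6% higher. Alas2, the first enzyme of heme synthesis in red cells, had 16.6, 12.7 and 20.8 TPM in the G sort, against 660.2, 372 and 687 TPM in all cells (log2 fold change -4.99 ± 0.25 SE, adjusted p = 1.40e-06). Slc4a1, the band 3 anion exchanger of the red cell membrane, had 30.5, 32.1 and 59.9 TPM in the G sort, against 1252, 889 and 1278 TPM in all cells (log2 fold change -4.82 ± 0.26 SE, adjusted p = 1.75e-06). Tfrc, the transferrin receptor that brings in iron, had a log2 fold change of -2.39, and Gata1, the transcription factor of the lineage, of -2.65. Tmcc2, a membrane protein gene of the same list, varied most among all cells, with 13.9, 10.2 and 13.5 TPM in the G sort and 424, 122 and 369 TPM in all cells (log2 fold change -4.32 ± 0.42 SE, adjusted p = 3.97e-05), library 2 being the lowest. The exceptions were the ferritins Fth1 and Ftl1, which most cells express (-0.76 and -0.39), and Nfe2 and Bnip3l, which were not called (0.41 and 0.20). Samd11, Ypel4, Fn3k and Slc6a9, which are in no list here, were also among the 12 lowest genes, with log2 fold changes of -4.44 to -4.05.

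Promoters of a globin and of a heme gene are shown for the letters of the GATA motif (AGATAA or TGATAA) and of the CACCC box (CACACCC), in capitals on either strand, from the same RefSeq windows.
Hbb-bs (chr7:103827879-103828178, minus strand): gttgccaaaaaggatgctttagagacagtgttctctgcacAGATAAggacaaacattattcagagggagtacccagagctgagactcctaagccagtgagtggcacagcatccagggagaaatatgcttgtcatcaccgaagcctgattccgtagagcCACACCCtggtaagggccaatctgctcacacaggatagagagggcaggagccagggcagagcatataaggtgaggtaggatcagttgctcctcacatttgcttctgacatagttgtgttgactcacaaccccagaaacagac
Alas2 (chrX:150547167-150547466, plus strand): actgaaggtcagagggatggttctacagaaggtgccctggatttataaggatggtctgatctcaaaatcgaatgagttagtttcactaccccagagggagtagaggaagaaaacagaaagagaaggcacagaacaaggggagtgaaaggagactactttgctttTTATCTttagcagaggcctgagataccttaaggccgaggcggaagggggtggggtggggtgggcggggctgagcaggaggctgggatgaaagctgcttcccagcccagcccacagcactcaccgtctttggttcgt
In Hbb-bs the GATA letters lie 210 bases and the CACCC letters 92 bases before the start, and in Alas2 the GATA letters lie 86 bases before it on the other strand. GATA letters were found in 15 of 39 promoters of the red cell genes called lower (38.5%), against 10.5% of tested genes and 19% of all windows. CACCC letters were found in 5 of 39 (12.8%), against 8.32% and 7.85%. In promoters of the mature granulocyte genes called higher, GATA letters were in 7 of 24 (29.2%) and CACCC letters in 6 of 24 (25%).

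Compared with all cells, genes of monocytes were often lower in the G sort, and most were further below the M sort. Of 24 tested, 14 were called lower and 2 higher, with a median log2 fold change of -1.27. Against the M sort 21 were lower, beside 4% of all genes. The list took 0.167% ± 0.0027 of TPM in the G sort, 0.199% ± 0.018 in all cells and 0.886% ± 0.022 in the M sort (SD, n = 3 each). Psap, Ly6c2 and Mpeg1, abundant members, overlapped between the G sort and all cells (log2 fold changes 0.001, 0.02 and 0.07). S100a4, a calcium-binding protein of monocytes, had 12.2, 12.9 and 13.4 TPM in the G sort, against 77.7, 107 and 97.3 TPM in all cells (log2 fold change -2.77 ± 0.11 SE, adjusted p = 5.73e-07), and had 428, 462 and 408 TPM in the M sort. Fn1, fibronectin, had 24.5, 20.0 and 31.1 TPM in the G sort, 89.2, 92.7 and 78.8 TPM in all cells and 1006, 1038 and 1096 TPM in the M sort (log2 fold change -1.76 ± 0.15 SE, adjusted p = 1.65e-05). Csf1r, the receptor of the macrophage growth factor, was not called against all cells, with 68.5, 65.5 and 66.7 TPM in the G sort and 54.1, 59.0 and 53.2 TPM in all cells (log2 fold change 0.27). The 2 genes called higher, Cd14 and Emb, are a lipopolysaccharide co-receptor and an adhesion protein (1.42 and 1.11), and Emb missed the fold minimum with globin genes taken out (0.99). Macrophage genes had 6 of 19 called lower and 1 higher, where 12.4% of all genes were lower and 12.6% higher. C1qa, a subunit of complement C1q, had 28.6, 30.9 and 21.7 TPM in the G sort, against 63.3, 55.5 and 65.6 TPM in all cells (log2 fold change -1.17 ± 0.13 SE, adjusted p = 8.87e-05), and Lyve1, a hyaluronan receptor, was the one higher (1.76). With the spread taken from all 39 libraries 1 macrophage gene was called lower, and C1qa was not (adjusted p = 0.0996). Dendritic cell genes had 7 of 14 called lower and 2 higher, with 1 higher in turn without G library 1, all cells library 1 or all cells library 3, and none higher with globin genes taken out. With a minimum of 5 TPM, 4 of the 10 then tested were called lower. Siglech, a receptor of plasmacytoid dendritic cells, was lower (-1.96), as was Zbtb46, a transcription factor of conventional ones (-1.52).

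Basophil, mast cell and eosinophil genes were lower in the G sort, with 13 of 18 called lower, 1 higher and a median of -1.66. For this list and the next, the shares of all genes were 12.4% lower and 12.6% higher. Mcpt8, a protease of mouse basophils, had 12.2, 19.0 and 18.4 TPM in the G sort, against 161, 225 and 157 TPM in all cells (log2 fold change -3.38 ± 0.19 SE, adjusted p = 2.37e-06). Prss34, another basophil protease, had a log2 fold change of -3.41, and Gata2, a transcription factor of these cells and of stem cells, of -2.12. Prg2, the major basic protein of eosinophils, had 204, 360.5 and 257 TPM in the G sort, against 823, 1981 and 599.8 TPM in all cells (log2 fold change -1.89 ± 0.41 SE, adjusted p = 0.00361). Its libraries of all cells spread widely, library 2 being the highest, as it was for Epx, the eosinophil peroxidase (67.9, 209 and 53.1 TPM in all cells, 16.6, 37.0 and 27.3 TPM in the G sort). Hdc, the enzyme that makes histamine, was the one higher, with 137, 139 and 172 TPM in the G sort, against 40.7, 55.6 and 36.7 TPM in all cells (log2 fold change 1.74 ± 0.16 SE, adjusted p = 2.48e-05). Of 20 T and NK cell genes 13 were called lower and none higher, with a median of -1.31, and with a minimum of 5 TPM 8 of the 11 then tested were called lower. Nkg7, of cytotoxic lymphocyte granules, had 2.39, 3.39 and 6.24 TPM in the G sort, against 51.6, 79.5 and 52.3 TPM in all cells (log2 fold change -3.68 ± 0.28 SE, adjusted p = 1.07e-05). Trbc2, a T cell receptor constant segment, had a log2 fold change of -2.05.

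**Figure D5:**
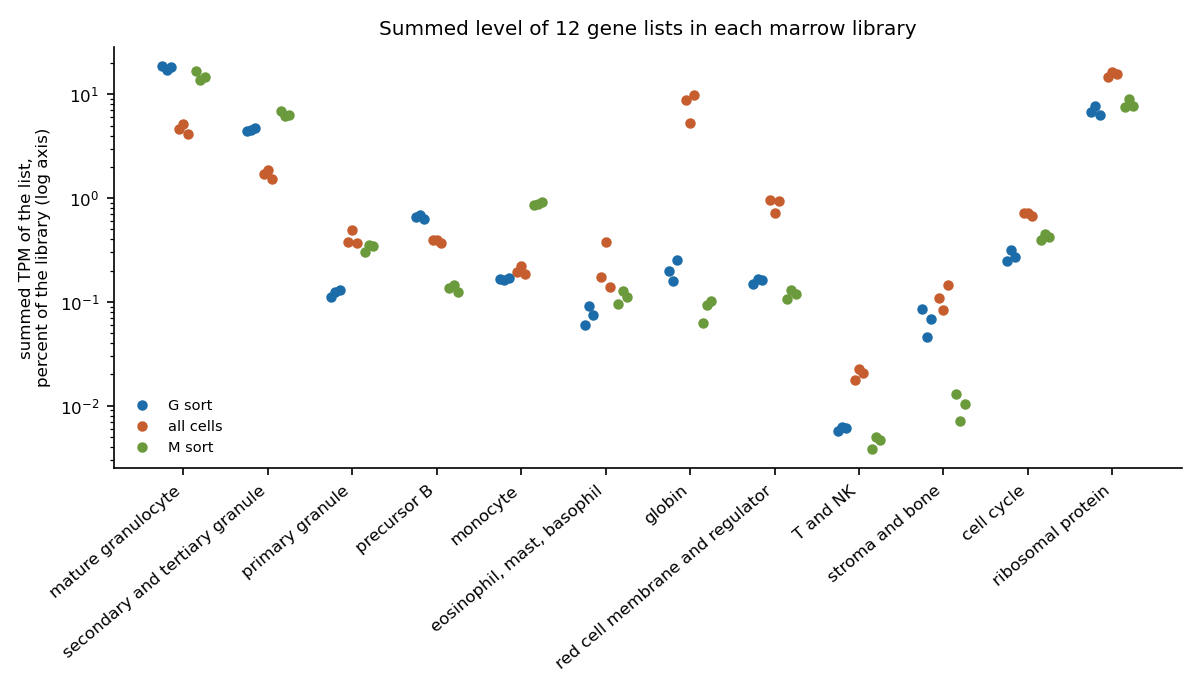
Summed TPM of 12 gene lists as a percentage of each of the 9 marrow libraries (log axis); points are libraries of the G sort, all cells and the M sort, in that order from left to right within a list. Globin genes sum to 0.158% to 0.251% in the G sort and 5.30% to 9.82% in all cells, and precursor B genes are highest in the G sort.

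Genes of B lymphocyte precursors were higher in the G sort than in all cells. Of 25 tested, 20 were called higher and none lower, with a median log2 fold change of 1.29. All 25 were higher than in the M sort, with a median of 2.82. The shares of all genes called higher were 12.6% against all cells and 9.46% against the M sort. They took 0.660% ± 0.028 of TPM in the G sort, 0.386% ± 0.013 in all cells and 0.136% ± 0.011 in the M sort (SD, n = 3 each). Igll1, a part of the surrogate light chain of the precursor B cell receptor, had 753, 798 and 730.0 TPM in the G sort, against 172, 216 and 178 TPM in all cells (log2 fold change 2.01 ± 0.09 SE, adjusted p = 9.07e-07). Its partner Vpreb1 had 612, 599 and 528 TPM in the G sort, against 152, 218 and 180.2 TPM in all cells (log2 fold change 1.66 ± 0.13 SE, adjusted p = 1.06e-05). Dntt, the polymerase that adds bases to antigen receptor joints, had 127, 149 and 113 TPM in the G sort, against 22.3, 25.0 and 19.1 TPM in all cells (log2 fold change 2.50 ± 0.12 SE, adjusted p = 1.30e-06). In none of these 3 genes did the groups overlap, and no G library stood apart. Each G library also lay above in 34% of all genes tested. Ighm, the mu heavy chain, was not called (0.75, adjusted p = 3.38e-05). Without library 2 of the G sort, 1 gene of the list was called lower. Mature B and plasma cell genes had 4 of 17 called higher (23.5%, against 12.6% of all genes) and none lower, with a median of -0.05. Among them, Igkc, the kappa constant segment, had 291, 291 and 294 TPM in the G sort and 347, 363 and 327 TPM in all cells (-0.24). Without G library 2 or all cells library 2, 1 of these genes was called lower. The gate that gave the G sort is not stated, and the part of B lineage cells in its libraries was not tested.

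Genes of the fixed tissue of bone and vessels were mostly not called against all cells and were higher than in the M sort. Of all genes tested, 12.6% were called higher and 12.4% lower against all cells, and 9.46% were higher than in the M sort. Of 25 stroma and bone genes 4 were called lower and 1 higher against all cells, with a median log2 fold change of -0.26, while 22 were higher than in the M sort, with a median of 1.81. Col1a1, a chain of the main bone collagen, had 177, 88.7 and 139 TPM in the G sort, against 347, 268 and 394 TPM in all cells (log2 fold change -1.35 ± 0.24 SE, adjusted p = 0.00133), and had 35.5, 14.4 and 20.0 TPM in the M sort. Alpl, an alkaline phosphatase of bone-forming cells, was the one higher (1.05), and was not called without library 2 of all cells (0.97) or with globin genes taken out (0.94). Of 16 endothelial genes 1 was called lower and none higher against all cells, while 15 were higher than in the M sort. Without library 2 of the G sort, 3 were called higher and none lower, and without library 1 or 3 of all cells, 1 higher and none lower. Egfl7, a secreted protein of endothelium, had 70.7, 64.2 and 54.0 TPM in the G sort, 52.7, 49.97 and 62.3 TPM in all cells and 13.6, 13.5 and 10.4 TPM in the M sort. Of 4 cartilage genes none was called, and 1 was lower without G library 1 or all cells library 2. Osteoclast genes had 2 of 12 called higher, Nfatc1 and Mmp9, and 1 lower, Car2. Mmp9 is also in the mature granulocyte list, and red cells also express Car2. Ctsk, the collagen-cleaving protease of osteoclasts, was not called against all cells, with 95.4, 104 and 100.1 TPM in the G sort and 75.8, 67.3 and 109 TPM in all cells, and had 1.46, 3.46 and 4.00 TPM in the M sort. Of 20 megakaryocyte and platelet genes 4 were called lower and 1 higher against all cells. Without library 1 of the G sort, in which they were highest, 10 were called lower, and without G library 2 or all cells library 3, 1 was, as after median ratio rescaling. Pf4, a platelet chemokine, had 204, 100.5 and 116 TPM in the G sort, against 254, 227 and 339.6 TPM in all cells (log2 fold change -1.01 ± 0.26 SE, adjusted p = 0.00848). It missed the fold minimum without G library 2 (-0.80), G library 3 (-0.91) or all cells library 3 (-0.84) and after rescaling (-0.89), and with the spread of all 39 libraries its adjusted p was 0.14. Stem and progenitor genes had 5 of 18 called lower and none higher, among them Cd34, an antigen of those cells (log2 fold change -2.17 ± 0.15 SE, adjusted p = 7.19e-06), and 3 were lower after median ratio rescaling.

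Genes of growth and division were lower in the G sort. Of 33 cell cycle genes 26 were called lower and none higher, with a median log2 fold change of -1.33. Among all genes tested, 12.4% were called lower and 12.6% higher. Their sum was 0.280% ± 0.034 of TPM in the G sort, 0.704% ± 0.022 in all cells and 0.421% ± 0.027 in the M sort (SD, n = 3 each). Mki67, found in dividing cells, had 132, 169.6 and 155 TPM in the G sort, against 374, 328 and 348 TPM in all cells (log2 fold change -1.20 ± 0.10 SE, adjusted p = 1.48e-05). Pcna, the clamp of DNA polymerases, had a log2 fold change of -1.34, and Birc5, survivin, of -1.90. Ribosomal protein genes took 6.93% ± 0.70 of TPM in the G sort, 15.8% ± 0.87 in all cells and 8.10% ± 0.77 in the M sort (SD, n = 3 each). All 77 had a log2 fold change between -1.78 and -0.78, and 60 passed the fold minimum. Many have processed pseudogenes, so their reads may be divided. Rps12 had 1591, 1780 and 1428 TPM in the G sort, against 4097, 4710 and 4694 TPM in all cells (log2 fold change -1.49 ± 0.11 SE, adjusted p = 7.70e-06).

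Metabolic and survival genes were mixed. Their counts stand beside 12.6% of all genes called higher and 12.4% called lower. Of 19 glycolysis genes 7 were called higher and none lower, with a median of 0.50. The glucose transporter Slc2a3 had 420.3, 402 and 455 TPM in the G sort, against 76.8, 61.4 and 62.8 TPM in all cells (log2 fold change 2.66 ± 0.09 SE, adjusted p = 3.49e-07), and Pfkfb4, which sets the level of an activator of phosphofructokinase, had a log2 fold change of 2.24. Hk1, hexokinase 1, was not called (-0.98), and was called lower without library 2 of the G sort (-1.003), without library 2 of all cells (-1.02) and with globin genes taken out (-1.10). Survival and apoptosis genes had 4 of 17 called higher and none lower, namely Fas, Birc3, Cflar and Mcl1 (2.23, 1.54, 1.16 and 1.01). Mcl1 missed the fold minimum without G library 1 (0.95), all cells library 1 (0.99) or all cells library 2 (0.999) and with globin genes taken out (0.90). Of 23 interferon response genes 5 were called higher and 4 lower, with a median of 0.06. Oas2, an antiviral enzyme, had 45.6, 44.7 and 52.6 TPM in the G sort, against 9.57, 12.7 and 8.86 TPM in all cells (log2 fold change 2.11 ± 0.13 SE, adjusted p = 3.75e-06), whereas Rsad2, viperin, had 6.80, 6.70 and 6.81 TPM in the G sort, against 62.0, 29.9 and 65.1 TPM in all cells (log2 fold change -2.70 ± 0.26 SE, adjusted p = 3.94e-05), library 2 of all cells being the lowest of its group. Of 13 genes encoded by mitochondria, 1 was called lower, and none higher, with a median of -0.19. Pseudogenes of mitochondrial sequence were among the most abundant entries of both groups, so reads of these genes may be divided.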

How the data were processed

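RNA of 9 marrow libraries was used, 3 each of the G sort, all cells and the M sort. Per the labels' protocols, cells were taken up in Trizol, a stranded polyadenylated RNA kit (TruSeq) was used, and a NextSeq 500 gave 75 bp single reads. The submitters' processing notes list bcl2fastq 2.18, STAR 2.6.1c, RSEM and the mm10 build; the version of RSEM and the gene annotation are not stated there. The authors deposited gene-level TPM from RSEM, which sum to 1000000 per library to within 1 TPM, for 53465 genes; symbols turned into dates (26) were restored, and repeated symbols (220 entries) were told apart by gene ID.

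Genes reaching 1 TPM in 3 or more of the 6 libraries were tested as log2(TPM + 1), a scale that understates the change of low genes, with limma 3.58.1 in R 4.3.3 (group means, variance trend, 4 residual degrees of freedom, two-sided, Benjamini-Hochberg adjustment over 14200 genes). The G and M sorts were compared in a fit of the 9 marrow libraries. Sums and promoter letters came from Python 3.11.15 (pandas 2.3.3, numpy 2.4.6), and for the 4163 symbols with more than 1 promoter window the first was used.

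The 32 lists hold 665 genes, 661 of them in the table. The members, the lists and the comparison were chosen with earlier results of these data known. Genes could be named if they were a marker of the labels, among the 12 largest or 12 smallest log2 fold changes of called genes without overlap and a higher group mean from 20 TPM up (provisional, antigen receptor and pseudogene symbols left out), among the 8 highest or the 2 largest or 2 smallest changes of a list, or among the 10 most abundant of a group. The text names a subset of these, picked after the values were seen, and says where a gene falls outside them. Results for some genes are not reported here. Alternatives were a pseudocount of 0.1, no filter, a minimum of 5 TPM, median ratio rescaling, globin genes taken out, fits of 9 and of 39 libraries, replicate number as a block, no fold minimum, and each library left out in turn.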

Additional observations from a re-analysis of the deposited data

How the results depend on the processing

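The 3545 genes called between the G sort and all cells came to between 3033 and 4350 under the alternatives that keep the fold minimum, and to 3429 to 3790 when each library was left out in turn (1746 to 1841 higher, 1663 to 1949 lower). With no fold minimum 10283 genes were called, 4560 higher and 5723 lower, since small changes then count. Rescaling by median ratio gave 2046 higher and 1377 lower and taking out globin genes moved the split the other way, to 41.4% of calls higher, against 50.3% in TPM as deposited; the direction of no named gene changed under any of these alternatives. Of the 77 ribosomal protein genes between 44 and 76 were called lower under the alternatives that keep the fold minimum. Once globin genes are taken out none is left to test. Small list counts also moved by 1: with a pseudocount of 0.1, 1 pattern recognition gene was called lower and 1 endothelial gene higher; after median ratio rescaling no endothelial gene was lower and 2 macrophage genes were higher; with globin genes taken out 1 adhesion gene and 2 osteoclast genes were lower; and in the fit of 9 marrow libraries 1 mature B or plasma cell gene was lower.

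Each library's deviation from its group mean was correlated with that of each library of the other group. Between the G sort and all cells, r was 0.004, 0.187 and 0.042 for the same number and -0.170 to 0.130 for other numbers. Whether the numbers pair the G sort with all cells was not tested, and the main fit did not pair them. Library 2 had the highest Prg2 and Epx in each of the 3 groups. Pf4, by contrast, was highest in library 1 of the G sort and in library 3 of all cells. Between the G and M sorts, r was 0.110, 0.180 and 0.090 for the same number and -0.126 to 0.017 for other numbers. Whether the numbers pair the 2 sorts was not tested, and the main fit did not pair them. With the replicate number as a block, 3561 genes were called between the G sort and all cells, and 1352 higher and 569 lower against the M sort. Depth is unknown, so what the precision of low genes owes to it could not be given, and each group rests on 3 libraries.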
